A study of Mus musculus with 4 samples.

Results

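Joins of broken switch-region DNA were compared between activated B cells labelled as deleted for CtIP and Wildtype B cells, by the 2 libraries titled CtIP_KO and Wildtype among the 4 libraries of the study. The Wildtype library (CD21Cre+, CtIP +/C, XRCC4 +/C) held 9435 junctions and the CtIP_KO library (CD21Cre+, CtIP C/-, XRCC4 +/C) held 2555, of 18731 junctions in the whole series. Each genotype was 1 library with no replicate, so each test below compares 2 libraries by their junction counts, not 2 genotypes, and each interval covers counting error only. Both libraries came from splenic CD43- B cells of mice with preassembled IgH and IgK loci, which were harvested on day 4 of culture with 20 ng/mL IL-4 plus 1 ng/mL anti-CD40. Both groups carried CD21Cre, whose promoter is active in mature B cells, and 1 conditional XRCC4 allele, so either may have held 1 working XRCC4 copy. The Wildtype library, CtIP +/C with Cre, may likewise have held 1 working CtIP copy. The share of cells that had deleted CtIP was not analysed here, and no expression was measured by which the cell type could be checked. The labels give the strain as BL6 and the growth protocol as 129Sv, so the strain is unsettled.

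Class switching replaces the IgM constant region with another one by joining a break in Sμ, which lies before the IgM constant gene, to a break in a downstream switch region. Here those were Sγ1, used for IgG1, and Sε, used for IgE. The enzyme AID starts these breaks, with a preference for the motif AGCT. Classical end joining, which uses XRCC4 with DNA ligase IV, joins ends that have been trimmed little or not at all, and its joins are often blunt or hold short overlaps. CtIP starts resection, the removal of 1 strand from an end, which exposes the overlaps (microhomology) that alternative end joining uses.

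The joins were read outward from a fixed primer in Sμ, called the bait, to the partner end, called the prey. The bait and its primers are shown because joins in both libraries start here, apart from 49 Wildtype and 15 CtIP_KO listed blunt joins whose bait alignment began elsewhere. The bait runs from the nested primer along the minus strand of mm9 at chr12:114664790-114664909, and capitals mark both AGCT motifs, at bait bases 64 to 67 and 85 to 88. The AflII site used to cut unrearranged DNA lies at bases 104 to 109.
biotin primer: cagacctgggaatgtatggt
nested primer: cacacaaagactctggacctc
bait: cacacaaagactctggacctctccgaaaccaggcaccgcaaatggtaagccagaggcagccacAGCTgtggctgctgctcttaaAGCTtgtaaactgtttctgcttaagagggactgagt

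Joins from each library to the same base show what was counted as blunt: 25 bases of bait in lower case run straight into 25 bases of prey in capitals, with no shared and no added base. The lower-case bases match the printed bait in 3 of the 4 joins, and the Wildtype join to Sγ1 differs from it at 1 base, G45T, counted from the first base of the nested primer. In Sγ1 both joins use the prey break at 114573314, and in Sε both use the break at 114514610, on the minus strand. The 20 reference bases around each break are given with the joined side in capitals. The bait ends differ between the libraries at both breaks, at 114664844 in Wildtype and 114664876 in CtIP_KO for Sγ1. Blunt joins of the libraries shared 41 prey positions in Sγ1 and 50 in Sε.
Wildtype blunt join to Sγ1, chr12:114573290-114573314: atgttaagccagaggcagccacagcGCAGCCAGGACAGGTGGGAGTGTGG
CtIP_KO blunt join to Sγ1, chr12:114573290-114573314: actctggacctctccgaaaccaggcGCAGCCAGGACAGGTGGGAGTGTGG
mm9 at the Sγ1 break, chr12:114573305-114573324: cagctgcaggGCAGCCAGGA
Wildtype blunt join to Sε, chr12:114514586-114514610: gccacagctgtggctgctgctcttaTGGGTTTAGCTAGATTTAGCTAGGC
CtIP_KO blunt join to Sε, chr12:114514586-114514610: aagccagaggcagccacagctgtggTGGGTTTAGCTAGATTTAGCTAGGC
mm9 at the Sε break, chr12:114514601-114514620: caggcctagcTGGGTTTAGC

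The libraries stood apart in how their reads begin. The sequence CCGTTA opened 592 of 2090 listed blunt reads of Wildtype (28.3%) and 16 of 607 of CtIP_KO (2.64%). A total of 15 pairs of bait end and prey position occurred among the blunt joins of both libraries. At those pairs 5 of the 15 CtIP_KO reads and 9 of the 16 Wildtype reads opened with CCGTTA. The part of these read starts in the results was not tested beyond leaving such reads out, and calls that were lost or gained when they were left out are given with their values. For place and structure over all junctions, CCGTTA reads were left out of CtIP_KO alone, and the Wildtype counts were kept whole. The depth of CtIP_KO sets the width of the intervals below.

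In CtIP_KO, Sμ breaks still went mostly to the switch regions, and the share of each moved by less than 3 percentage points. Joins within Sμ fell and joins outside IgH rose, and these were the 2 of 5 place classes called (40%) at an adjusted p under 0.05. Sμ held 2328 of 9435 Wildtype junctions (24.7%) and 562 of 2555 CtIP_KO junctions (22.0%), a difference of -2.68 points (95% interval -4.47 to -0.820, odds ratio 0.861, adjusted exact p = 0.0122 by Fisher's exact test). The Sμ call was lost when junctions outside IgH were left out of the total (odds ratio 0.887, adjusted exact p = 0.0526) and when each position was counted once (0.879, adjusted exact p = 0.0825). Junctions outside IgH made up 365 (3.87%) in Wildtype and 158 (6.18%) in CtIP_KO, a difference of 2.32 points (interval 1.35 to 3.38, odds ratio 1.64, adjusted exact p = 5.27e-06).

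The switch regions used for IgG1 and IgE differed by amounts near the counting error. Sγ1 took 4038 Wildtype junctions (42.8%) and 1047 CtIP_KO junctions (41.0%), with a difference between -3.96 and 0.342 points (adjusted exact p = 0.124). Sε took 2626 (27.8%) and 763 (29.9%), with a difference between 0.0625 and 4.04 points (adjusted exact p = 0.0748). The balance between the places depended on the total used: over junctions in IgH alone, the Sε share was called higher in CtIP_KO (odds ratio 1.15, adjusted exact p = 0.0262). With the Sμ junctions left out, the Sγ1 share was called lower (odds ratio 0.841, adjusted exact p = 0.00137). With insertions over 30 bases added to the total, the direction turned for Sε, at 25.9% and 24.7% (odds ratio 0.937, adjusted exact p = 0.225), and the Sγ1 share was called lower (0.774, adjusted exact p = 9.95e-09). The rest of IgH held 78 junctions (0.827%) and 25 (0.978%).

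**Figure D1:**
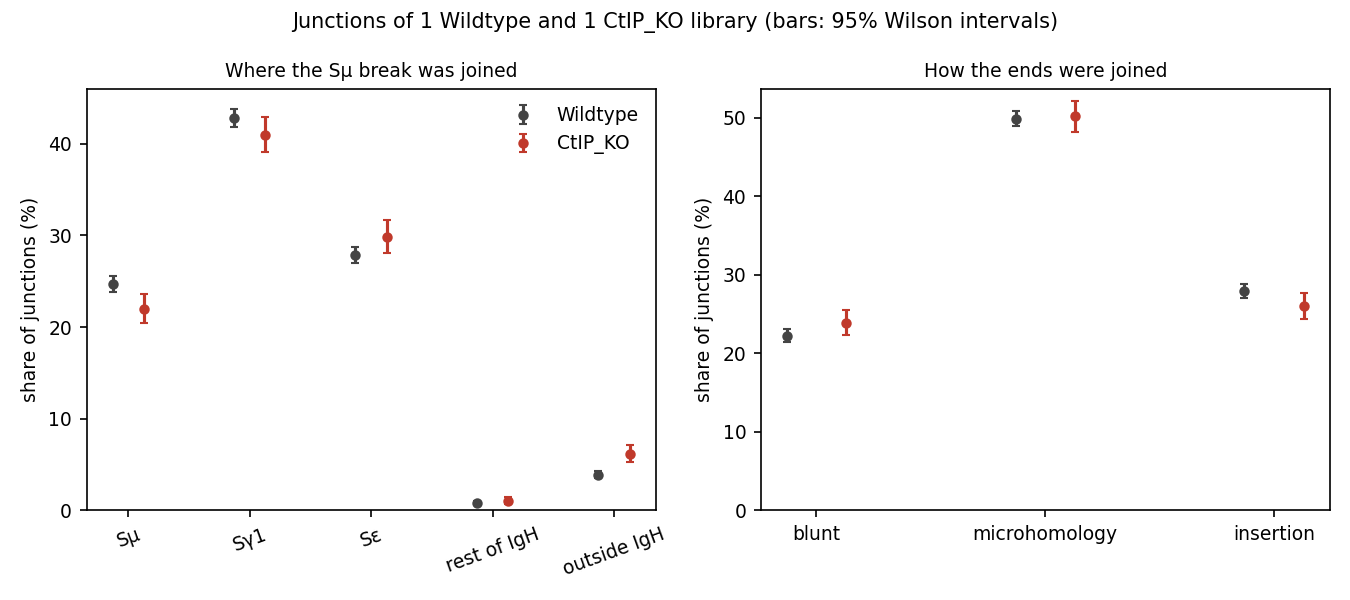
Shares of junctions by place (left) and by the structure of the join (right), in percent of all junctions of each library; points are the Wildtype and CtIP_KO libraries and bars are 95% Wilson intervals. Sμ is lower (24.7% and 22.0%) and outside IgH higher (3.87% and 6.18%) in CtIP_KO, and the microhomology points lie at 49.9% and 50.1%.

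The structure of the joins, which separates direct ligation from joining through overlaps, did not differ detectably between the libraries. None of 15 shares of blunt, microhomology and insertion joins over all junctions, the 3 switch regions and the rest of IgH was called (0%) by Fisher's exact test, and 1 of the 15 had an unadjusted p under 0.05. Blunt joins, with neither an overlap nor an added base, made up 2099 of 9435 (22.2%) in Wildtype and 610 of 2555 (23.9%) in CtIP_KO. The difference of 1.63 points had an interval of -0.196 to 3.51 (odds ratio 1.10, adjusted exact p = 0.415). Over this total, and for counting error alone, that bounds a loss of blunt joins at 0.196 points. The bound depends on the total: with insertions over 30 bases counted as insertions, the blunt shares were 20.7% and 19.7% (odds ratio 0.941), a larger loss. Joins with microhomology of 1 or more bases made up 4706 (49.9%) and 1281 (50.1%), and the interval of their difference ran from -1.93 to 2.44 points. Joins with an insertion of 1 to 30 bases made up 2630 (27.9%) and 664 (26.0%), with an interval of -3.78 to 0.0665 points (adjusted exact p = 0.415).

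The same held inside each switch region, with wider bounds. Within Sμ the blunt share was 19.6% in both libraries (456 of 2328 and 110 of 562), with an interval of the difference from -3.50 to 3.80 points. Within Sγ1 it was 23.0% and 23.9% (928 of 4038 and 250 of 1047), with an interval from -1.92 to 3.86. The Sε joins gave the widest gap between the libraries. There the blunt share was 25.2% in Wildtype (661 of 2626) and 29.1% in CtIP_KO (222 of 763), with an interval from 0.381 to 7.62 points, an unadjusted exact p of 0.0312 and an adjusted exact p of 0.415. Microhomology in Sε went the other way, at 49.0% and 45.7% (interval -7.26 to 0.759). Whether Sε differed from Sμ and Sγ1 in this was not tested.

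Microhomology in the other regions stayed closer. It was 46.3% and 47.7% in Sμ (interval -3.15 to 6.02 points) and 51.1% and 50.9% in Sγ1 (-3.63 to 3.16). Insertions were most frequent in Sμ, at 34.1% and 32.7%, against 25.9% and 25.2% in Sγ1 and 25.8% and 25.2% in Sε. All 3 regions had a lower insertion share in CtIP_KO, and none by more than the counting error. Over the 9 shares in the switch regions, the farthest limit of any interval was 7.62 points from 0, for blunt joins in Sε.

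The library labelled as deleted for XRCC4, of the same series and grown in the same way, gives a scale for these bounds. The XRCC4_KO library (CD21Cre+, CtIP +/-, XRCC4 C/-) held 3521 junctions, of which 12.6% were blunt, 67.2% had microhomology and 20.2% had an insertion. Its CtIP genotype also differs from that of Wildtype (CtIP +/C), so parts of the XRCC4 and CtIP genotypes in its changes cannot be told apart. Compared directly, CtIP_KO had 11.3 points more blunt joins (interval 9.29 to 13.3) and 17.1 points fewer joins with microhomology, an odds ratio of 0.490 for the latter. Of 12 such comparisons over all junctions, Sμ, Sγ1 and Sε, 11 were called (91.7%) by Fisher's exact test, and the exception was insertions in Sε (adjusted exact p = 0.0704). Against Wildtype, which both comparisons share, the blunt share changed by -9.64 points in XRCC4_KO and by 1.63 points in CtIP_KO. The microhomology share changed by 17.3 points in XRCC4_KO and by 0.259 points in CtIP_KO.

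**Figure D2:**
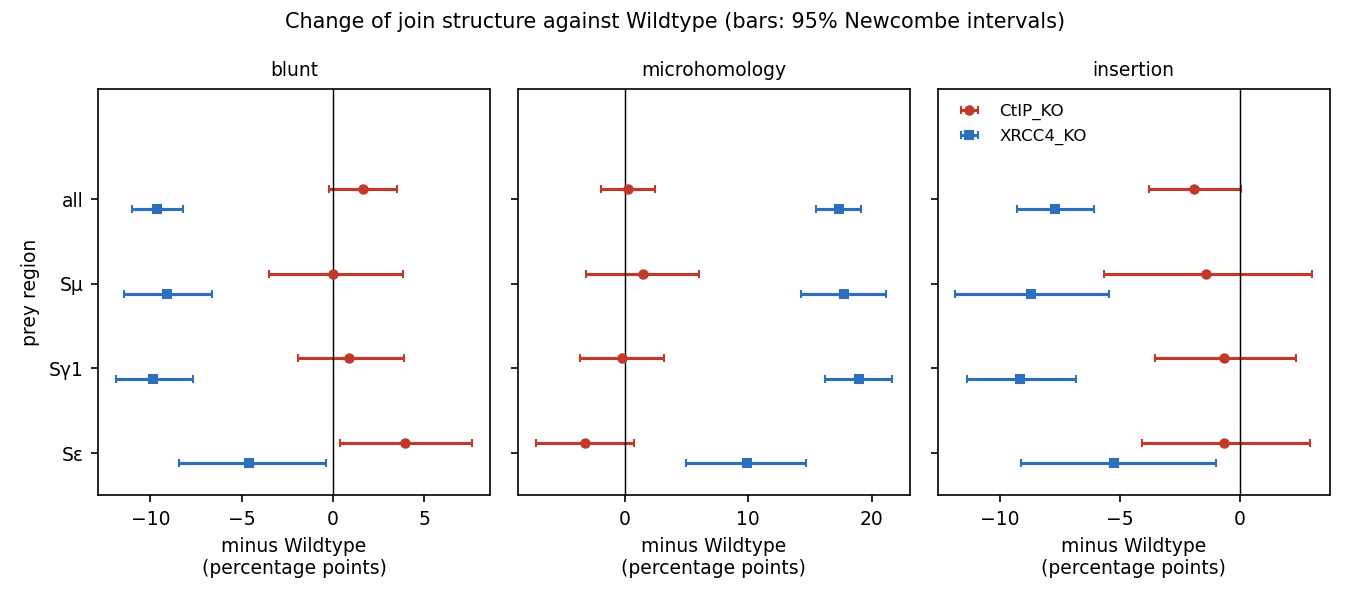
Difference of each mutant library from Wildtype in the share of blunt, microhomology and insertion joins, in percentage points, for all junctions and for each switch region; red circles are CtIP_KO, blue squares are XRCC4_KO, and bars are 95% Newcombe intervals. Over all junctions the 3 CtIP_KO intervals include 0, and the XRCC4_KO blunt share lies at -9.64 points.

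Split by the orientation of the join, the structure again showed no call. Of 18 shares (3 structures, 3 regions and both orientations), none was called (0%) and none had an unadjusted p under 0.05 by Fisher's exact test. Deletional joins are here those on the minus strand, which remove the DNA between bait and prey where the prey lies downstream of the bait. In Sγ1 and Sε they lead to a switched gene. Minus-strand Sμ joins upstream of the bait were counted with them, among them 45 Wildtype and 13 CtIP_KO junctions above 114665762. Over the 9 deletional shares the differences reached 3.40 points at most, and the farthest limit of an interval was 7.93 points. In deletional Sγ1 joins the blunt share was 23.0% (854 of 3706) and 23.7% (225 of 950), and in deletional Sε joins it was 25.5% (634 of 2487) and 28.9% (206 of 713). Inversional joins were few, and differences as wide as 27.5 points lay within their intervals. The widest was in inversional Sε joins, with 27 of 139 blunt (19.4%) in Wildtype and 16 of 50 (32.0%) in CtIP_KO (adjusted exact p = 0.707).

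The orientation itself was alike within narrow limits. In Sγ1, 3706 of 4038 Wildtype joins (91.8%) and 950 of 1047 CtIP_KO joins (90.7%) were deletional, with an interval of the difference from -3.11 to 0.796 points. In Sε the shares were 94.7% and 93.4% (-3.40 to 0.542), and in Sμ they were 77.1% and 77.6% (-3.47 to 4.21). Over the 3 switch regions together, 88.8% and 88.5% were deletional, with an interval from -1.82 to 1.06 points. None of these 4 comparisons was called (0%) by Fisher's exact test, and none had an unadjusted p under 0.05. When each position was counted once, the direction turned in Sγ1, in Sε and over the 3 regions, where it came to 86.0% and 88.1% (odds ratio 1.22, unadjusted exact p = 0.0153, adjusted exact p = 0.0612).

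The lengths of the overlaps were close in the bins that hold most joins. Of joins with microhomology, 1800 of 4706 (38.2%) in Wildtype and 457 of 1281 (35.7%) in CtIP_KO overlapped by 1 base. Overlaps of 2 to 3 bases made up 43.8% and 44.7%, those of 4 to 5 bases 11.6% and 12.1%, and those of 6 to 7 bases 3.23% and 2.81%. The share of 4 or more bases among overlaps of 1 to 15 bases was 17.8% (835 of 4694) and 18.9% (240 of 1270), with an interval of the difference from -1.23 to 3.60 points. None of 40 length comparisons was called (0%) by Fisher's exact test, and 4 had an unadjusted p under 0.05.

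Of those 4, 3 lay at the long end and 1 in the middle. Overlaps of 15 or more bases were 15 in Wildtype (0.319%) and 13 in CtIP_KO (1.01%), an odds ratio of 3.21 (interval 1.40 to 7.24, unadjusted exact p = 0.00386, adjusted exact p = 0.154). Those of 10 to 14 bases were 58 (1.23%) and 28 (2.19%), an odds ratio of 1.79 (1.09 to 2.87, adjusted exact p = 0.218). Junctions outside IgH, more frequent in CtIP_KO, supplied 44 of the 73 Wildtype and 23 of the 41 CtIP_KO overlaps of 10 or more bases. In Sγ1, overlaps of 10 to 14 bases were 9 of 2065 (0.436%) and 8 of 533 (1.50%), an odds ratio of 3.48 (1.16 to 10.2, adjusted exact p = 0.218). In Sμ, overlaps of 4 to 5 bases were 195 of 1077 (18.1%) and 33 of 268 (12.3%), an odds ratio of 0.635 (0.414 to 0.952, adjusted exact p = 0.230). The limit for a long overlap was also set at 10 bases, a choice made after seeing the data, with overlaps over 15 bases left out. The share of 10 to 15 bases was then called over all regions (odds ratio 1.84) and in Sγ1 (3.49), both at an adjusted exact p of 0.0310 by Fisher's exact test. In Sε, 5 of 1287 Wildtype and 2 of 349 CtIP_KO overlaps had 10 or more bases.

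The Sγ1 overlaps of 8 to 15 bases in CtIP_KO are shown so that the shared bases can be read against the bait. There were 16 such joins, 8 of them with 10 or more bases, at 15 distinct prey ends; the bin of 8 to 9 bases in Sγ1 held 37 of 2065 Wildtype and 8 of 533 CtIP_KO overlaps (odds ratio 0.835). Of the 16 joins, 11 used an overlap found in the bait printed above and 5 used one not found there, where found means an exact match of every base. Each overlap is the part of a read aligned to both bait and prey, so a missing exact match does not place it outside the bait. The most frequent overlap joined at 4 different Sγ1 positions between 114573413 and 114574292 and starts at bait base 55. Capitals mark the overlapping bases, as read.
4 joins at 4 positions, found in the bait: GGCAGCCA
2 joins at 2 positions, found in the bait: CCAGGCAC
2 joins at 2 positions, found in the bait: GCAGCCACAG
1 join, found in the bait: CAGAGGCAGCCA
1 join, found in the bait: AGCTGTGGCTG
1 join, found in the bait: GCTGCTCT
2 joins at 1 position, not found in the bait: CCATGGCACC
1 join, not found in the bait: CAGTGTGGC
1 join, not found in the bait: GCAGCTACAG
1 join, not found in the bait: GCTGCTGCGCTTA

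Insertions, bases added between the ends, did not differ detectably in length between the libraries. A single added base made up 933 of 2630 (35.5%) in Wildtype and 250 of 664 (37.7%) in CtIP_KO. Added runs of 3 to 4 bases followed at 22.7% and 24.7%, runs of 2 bases at 12.4% and 12.0%, and runs of 5 to 6 bases at 10.1% and 8.28%. Insertions of 2 or more bases made up 64.5% and 62.3%, with an interval of the difference from -6.33 to 1.88 points. By region these shares were 67.0% and 65.2% in Sμ, 63.1% and 63.3% in Sγ1, and 60.5% and 57.3% in Sε. Outside IgH the gap was wider, at 81 of 96 (84.4%) and 13 of 20 (65.0%), with an interval of the difference from -41.9 to -0.445 points (adjusted exact p = 0.634). None of 17 comparisons was called (0%), and none had an unadjusted p under 0.05 by Fisher's exact test.

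**Figure D3:**
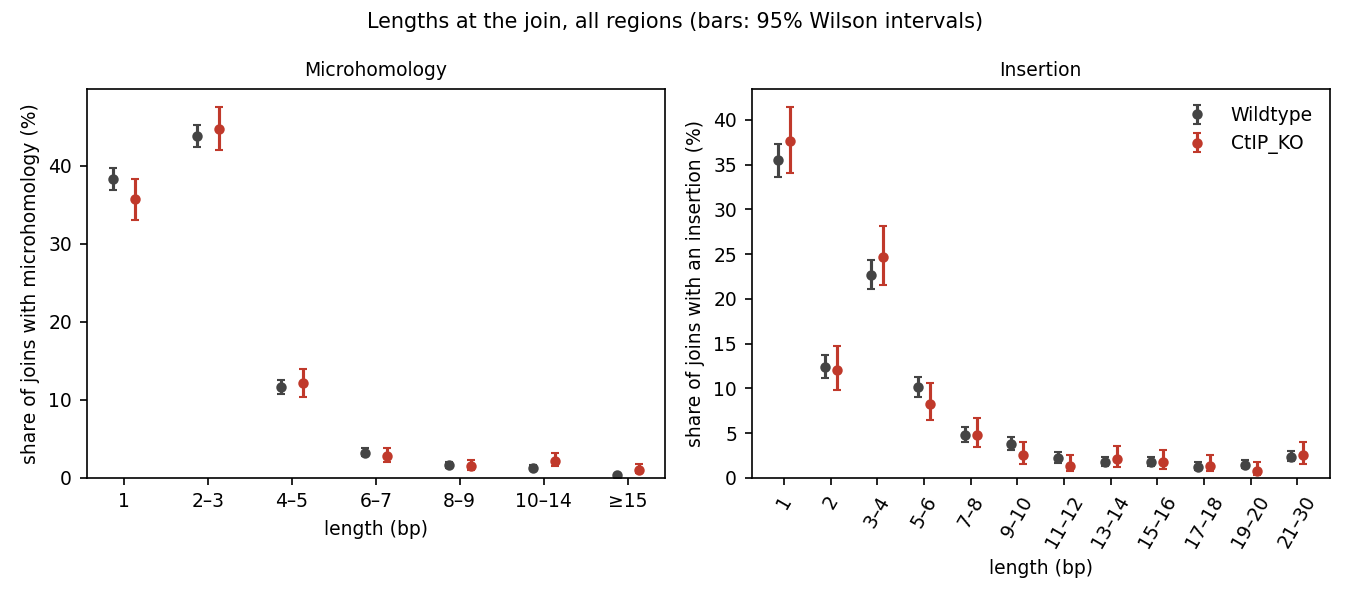
Length of the overlap, as a share of joins with microhomology (left), and of the added bases, as a share of joins with an insertion (right), in percent over all regions; points are the 2 libraries and bars are 95% Wilson intervals. Overlaps of 10 or more bases lie higher in CtIP_KO, at 2.19% against 1.23% for 10 to 14 bases, and the shorter bins overlap.

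Insertions over 30 bases are listed apart from the total and went a different way. Of all joins with these added, 710 of 10145 (7.00%) in Wildtype and 539 of 3094 (17.4%) in CtIP_KO were long insertions, an odds ratio of 2.80 (adjusted exact p = 9.11e-60 by Fisher's exact test, the 1 comparison made, 100% called). Of the listed ones, 516 of 692 (74.6%) in Wildtype and 390 of 528 (73.9%) in CtIP_KO came from reads with no read length given, and a further 124 (17.9%) and 121 (22.9%) had the prey at the bait itself. With the reads lacking a length left out, the odds ratio was 2.90 (interval 2.29 to 3.65, adjusted exact p = 1.11e-18 by Fisher's exact test), still called. With preys at the bait left out too, the remaining 52 and 17 gave an odds ratio of 1.21 (interval 0.653 to 2.13, exact p = 0.465). The call was thus lost only once preys at the bait were left out as well. Counting all of them as insertions turned the direction of every structure share, to an odds ratio of 0.941 for blunt, 0.817 for microhomology and 1.30 for insertion joins.

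The positions of the deletional joins within each switch region did not differ detectably. The median deletional junction in Sμ lay at 114663386 in Wildtype (95% interval 114663363 to 114663401) and at 114663389 in CtIP_KO (114663362 to 114663416). In Sγ1 the medians were 114573668 (114573613 to 114573719) and 114573714.5 (114573618 to 114573842), and in Sε they were 114513778 (114513731 to 114513805) and 114513710 (114513603 to 114513797). The ends of the intervals bound a shift of the median between -39 and 53 bases in Sμ, -101 and 229 bases in Sγ1, and -202 and 66 bases in Sε. With each position counted once, the shift of the median was -43 bases in Sμ, where it turned from 3 bases, 158.5 bases in Sγ1, up from 46.5, and -30.5 bases in Sε. For all 15 quantiles of deletional junctions (the 5th to the 95th percentile in each region) the intervals of the libraries overlapped, and the largest shift was 127 bases. They overlapped for all 15 quantiles of inversional junctions too, where shifts reached 489 bases. The largest gaps between the cumulative shares of inversional junctions were wider, at 14.9 points in Sμ, 10.5 in Sγ1 and 12.4 in Sε. Positions of inversional junctions were not tested.

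**Figure D4:**
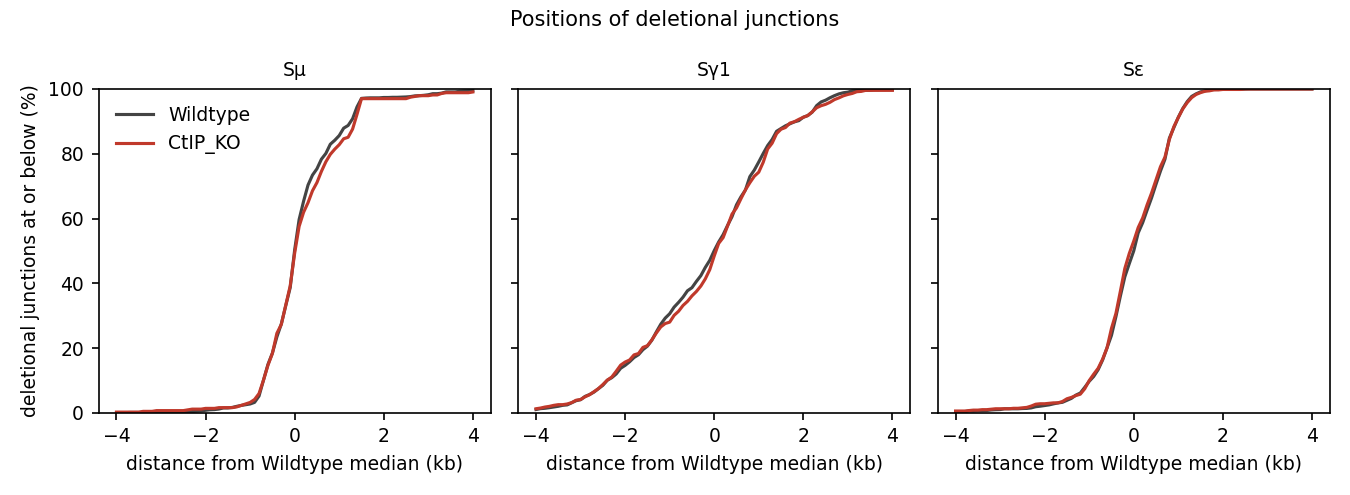
Cumulative share of deletional junctions in Sμ, Sγ1 and Sε, in percent, against the distance from the Wildtype median in kb; grey is Wildtype and red is CtIP_KO. The curves run close together, with largest gaps of 6.07 points in Sμ, 3.86 in Sγ1 and 3.54 in Sε.

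Finer positions gave no call either. Over 30 bins of 500 bases with 20 or more deletional junctions in the 2 libraries together, none was called (0%) by Fisher's exact test, and 3 had an unadjusted p under 0.05. The lowest p was in Sγ1, where 1 bin held 503 of 3706 (13.6%) and 161 of 950 (16.9%), an odds ratio of 1.30 (interval 1.06 to 1.58, adjusted exact p = 0.278). In the bin that held most Sμ junctions the shares were 38.0% and 33.9% (interval -8.87 to 1.06 points). In the fullest Sε bins they were 22.8% and 21.5%, and 22.6% and 25.5%. Of deletional CtIP_KO junctions, 56.2% in Sμ, 50.5% in Sγ1 and 62.1% in Sε lay at a base that Wildtype also used, and 24.5%, 20.7% and 29.7% of Wildtype junctions lay at a base that the smaller CtIP_KO library used. Of inversional CtIP_KO junctions, these shares were 34.9% in Sμ, 3.09% in Sγ1 and 8.00% in Sε. The share that depth and the use of few bases alone would give was not tested.

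Joins at the far ends of each region were counted apart. The core of a region holds the middle 95% of its deletional Wildtype junctions, which fixes the Wildtype share beyond it. All 6 tails held a larger share in CtIP_KO, and none of 6 was called (0%), with 1 at an unadjusted p under 0.05. Upstream of the Sγ1 core lay 93 of 3706 Wildtype junctions (2.51%) and 37 of 950 CtIP_KO junctions (3.89%), an odds ratio of 1.57 (interval 1.04 to 2.35, adjusted exact p = 0.160 by Fisher's exact test). The upstream tail held 3.23% of CtIP_KO junctions in Sε and 2.98% in Sμ. With each position counted once, the downstream tails of all 3 regions turned to a lower share in CtIP_KO, and a core of the middle 90% turned those of Sγ1 and Sε.

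The bait side of the blunt joins gives the base at which the Sμ end was joined. Where each break first lay is not known, so bait length does not measure how far an end was trimmed. In both libraries the shortest bait kept was 31 bases, and 18 Wildtype and 11 CtIP_KO joins kept more than 120. How far the assay, with its AflII cut at bases 104 to 109, sets this shared range was not tested. The median was 64 bases in Wildtype (interval 64 to 64, n = 2041 joins) and 62 in CtIP_KO (60 to 64, n = 592 joins). The quartiles were 50 and 80 bases in Wildtype and 47 and 78 in CtIP_KO. Baits of 1 to 50 bases made up 25.2% and 29.2% (interval of the difference 0.0254 to 8.25 points, adjusted exact p = 0.111), and those of 51 to 100 bases 70.8% and 66.4%. None of the 4 length classes was called (0%) by Fisher's exact test, and 1 had an unadjusted p under 0.05.

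Wildtype bait ends fell more often inside the AGCT motifs printed above than CtIP_KO ends did. An end counted as inside where the bait stopped after the A, the AG or the AGC of the motif. This held for 274 of 2041 Wildtype joins (13.4%) and 54 of 592 CtIP_KO joins (9.12%), a difference of -4.30 points (interval -6.88 to -1.35, odds ratio 0.647, adjusted exact p = 0.0140 by Fisher's exact test). It was 1 of 3 comparisons called (33.3%), all chosen after seeing the data. At the motif nearer the primer, bases 64 to 67, the shares were 9.16% and 6.42% (adjusted exact p = 0.0551), and at bases 85 to 88 they were 4.26% and 2.70% (adjusted exact p = 0.0920). With reads that open with any of 4 frequent starts left out, both motifs were called (odds ratios 0.646 and 0.522, both at an adjusted exact p of 0.0382). With joins of 51 to 100 bait bases only, the shares were 19.0% and 13.7% and the call was lost (odds ratio 0.681, adjusted exact p = 0.0519).

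**Figure D5:**
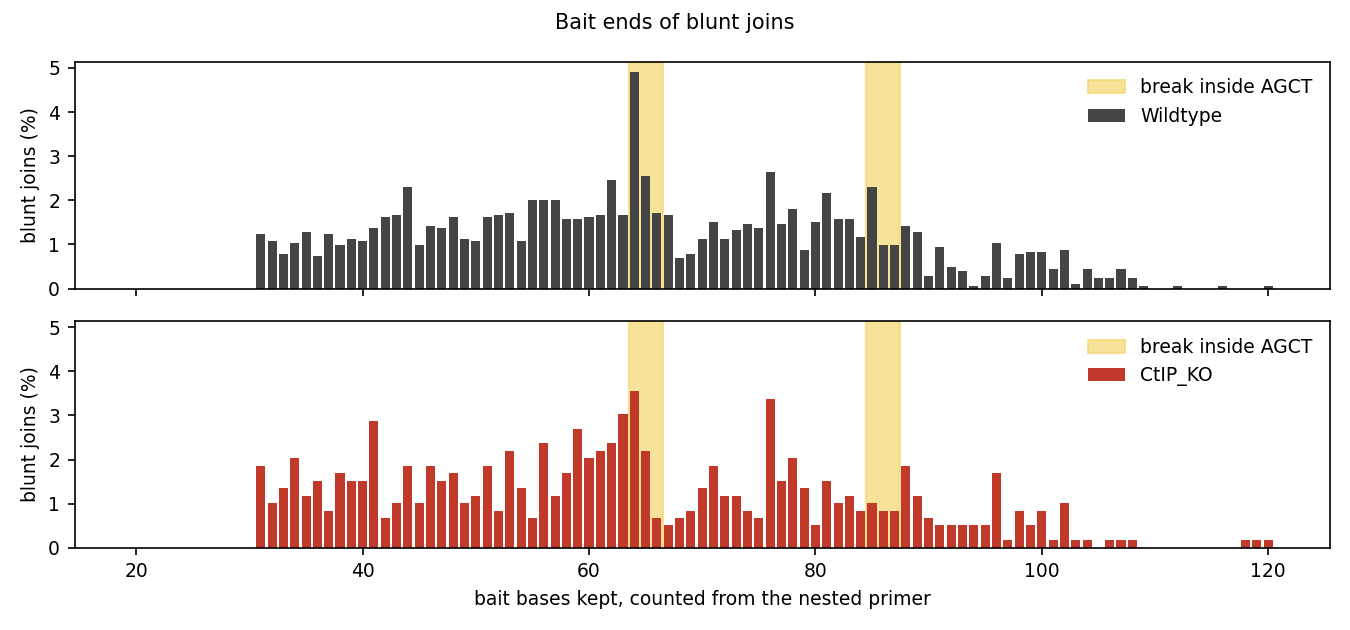
Bait ends of blunt joins, as the percentage of blunt joins of each library (top Wildtype, bottom CtIP_KO) against the number of bait bases kept; shaded bands are ends inside an AGCT motif. The highest bar of both libraries is at 64 bases, with 4.90% in Wildtype and 3.55% in CtIP_KO, and 18 Wildtype and 11 CtIP_KO joins with longer baits lie beyond the axis.

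The prey side gave no call for the same motif. AGCT, which reads the same on both strands, was searched in the 20 mm9 bases around each blunt prey break, 10 on each side. In Sμ it was present at 322 of 455 Wildtype breaks (70.8%) and 63 of 110 CtIP_KO breaks (57.3%), an odds ratio of 0.554 (interval 0.353 to 0.872, unadjusted exact p = 0.00853, adjusted exact p = 0.0682 by Fisher's exact test). In Sγ1 the shares were 36.6% and 42.9%, and in Sε 53.0% and 57.2%, with the higher share in CtIP_KO in both. At blunt breaks away from these 3 regions it was present in 7 of 52 (13.5%) and 4 of 28 (14.3%). None of 8 comparisons of the motif at the prey was called (0%), and 1 had an unadjusted p under 0.05.

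Among junctions that the deposited counts class as outside IgH, the libraries differed in the share of insertions as well as in number. Not all of these junctions lay far from IgH. Of those listed, 36 in Wildtype and 4 in CtIP_KO lay on chromosome 12 in or above the 1 Mb bin holding the switch regions. Whether any of them lay within the IgH locus was not tested. Of 5 shares 3 were called (60%) by Fisher's exact test. Insertions made up 96 of 365 junctions (26.3%) in Wildtype and 20 of 158 (12.7%) in CtIP_KO, a difference between -20.1 and -6.22 points (odds ratio 0.407, adjusted exact p = 0.00269). Microhomology made up 229 (62.7%) and 116 (73.4%), a difference between 1.87 and 18.7 points (odds ratio 1.64, adjusted exact p = 0.0345). This call was lost in all 4 alternatives run for it, with adjusted exact p from 0.0676 to 0.407 and odds ratios from 1.27 to 1.71; among them are each position counted once (1.45, 0.151) and the end of chromosome 12 around IgH left out (1.53, 0.138). Blunt joins were 40 (11.0%) and 22 (13.9%), with an interval from -2.85 to 9.82 points. Overlaps there were long in both libraries: the share of 4 or more bases was 49.3% (109 of 221) and 42.6% (46 of 108).

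The place of these junctions differed by chromosome. Chromosome 12, which carries IgH, took 75 of 329 listed junctions (22.8%) in Wildtype and 18 of 154 (11.7%) in CtIP_KO (odds ratio 0.449, adjusted exact p = 0.0105). Set against all junctions, chromosome 12 outside IgH stood at 0.795% and 0.705% (interval of the difference -0.417 to 0.346 points), and the other chromosomes rose from 2.69% (254) to 5.32% (136), an odds ratio of 2.03 (interval 1.63 to 2.53, adjusted exact p = 9.80e-10, 1 of 3 called, 33.3%). These counts hold listed junctions only, while 36 of 365 Wildtype and 4 of 158 CtIP_KO lines outside IgH were emptied and give no chromosome. The shares can therefore be low by unequal amounts, and how far this moves the odds ratio was not tested. On the other chromosomes alone the insertion shares were 22.8% and 12.5% (odds ratio 0.484, adjusted exact p = 0.0526) and the microhomology shares 66.9% and 72.1%, and none of 6 shares split by chromosome was called (0%), with 2 at an unadjusted p under 0.05. Read starts differed here much as they did among blunt joins. CCGTTA opened 32.2% of the listed Wildtype junctions outside IgH and 1.30% of those of CtIP_KO, against 28.3% and 2.64% of blunt reads. With reads that open with any of 4 frequent starts left out, the insertion call stayed and the calls on microhomology (odds ratio 1.71, adjusted exact p = 0.0676) and chromosome 12 (0.569, adjusted exact p = 0.107) were lost.

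Few sites outside IgH recurred. The fullest 1 Mb bin in both libraries lay on chromosome 7, with junctions at chr7:132632764-132747650, and held 13 of 305 distinct Wildtype junctions and 6 of 151 distinct CtIP_KO junctions (3.97%, 95% interval 1.83 to 8.40%). On chromosome 2, junctions at chr2:98507112-98507488 were 2 in Wildtype and 4 in CtIP_KO, and on chromosome 12, those at chr12:3109913-3110047 were 2 and 3. Sites led by Wildtype held 1 CtIP_KO junction each. These were chr12:70296247-70400067 with 10 Wildtype junctions, chr12:115008372-115920881 with 9, chr12:114097747-114940626 with 8, chr6:70672008-70673873 with 7 and chr12:63383318-63383369 with 6. Such small counts per site do not show a difference between the libraries, and no site was tested.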

How the data were processed

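Joins to a break in Sμ were read by linear amplification, nested PCR and MiSeq sequencing, with AflII used against unrearranged DNA, per the labels' protocols. The submitters' processing notes name Bowtie2 and the mm9 build. The rules for calling junctions, filtering them and removing duplicates are not given in the sources used here. Deposited by the authors were, per library, junction counts by place, strand and bin of overlap or insertion, lists of 1 mm9 position per junction, and tables of the reads. The counts were used as deposited. Lines emptied in the read tables (9 of 2099 and 3 of 610 blunt, 36 of 365 and 4 of 158 outside IgH, 18 of 710 and 11 of 539 long insertions, for Wildtype and CtIP_KO) stayed in the deposited counts and out of steps that need a position or a sequence. Overlap bins were checked against the CtIP_KO table of all junctions.

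Groups were taken from the sample titles. Shares have 95% Wilson intervals, differences 95% Newcombe intervals and odds ratios exact conditional 95% intervals. Tests were two-sided Fisher's exact tests with Benjamini-Hochberg adjustment within each kind of comparison and a threshold of 0.05. Quantiles have 95% intervals from binomial order statistics. Region borders are those of the deposited position histograms. Bait length is that of each read's own bait alignment, for reads whose primer-side end lay within 10 bases of the most frequent one. Bases kept for ends inside AGCT, the shortest bait and baits longer than the printed one were counted from that most frequent end. The 20 reference bases at each prey break are a deposited column; 10 of them matched the read at 9 or more bases in 2089 of 2090 Wildtype and 607 of 607 CtIP_KO blunt joins. The comparisons, classes and lists were chosen with earlier results of these data known. Position bins named are the one with the lowest p and the fullest ones, and sites named are 1 Mb bins with 3 or more distinct junctions in CtIP_KO or the 6 fullest in Wildtype. Tests were tried on simulated data. No gene is named at a coordinate, since the gene table at hand is not of mm9. Alternatives changed the total, repeated positions, cut-offs and read starts. Software was scipy 1.17.1, numpy 2.4.6 and pandas 2.3.3 under Python 3.11.15, with matplotlib 3.10.9 for figures.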

Additional observations from a re-analysis of the deposited data

How the results depend on the processing

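Of 128 alternative values for 51 results, 91 kept their direction and side of the threshold; values below are odds ratios of CtIP_KO over Wildtype unless named otherwise. No paired analysis was possible because each genotype has 1 library. Leaving out junctions outside IgH gave 0.887 for the Sμ share, no longer called, 1.15 for Sε, now called, and 0.970 for microhomology, turned. Leaving out Sμ gave 0.841 for Sγ1, now called, and Sγ1 and Sε alone gave 0.939 for microhomology. Adding insertions over 30 bases to the total gave 0.774 for Sγ1, now called, and 0.937 for Sε, turned; counted as insertions they gave 0.941 for blunt, 0.817 for microhomology and 1.30 for insertion joins, all turned, the last 2 past the threshold. Without reads lacking a length, long insertions gave 2.90, still called, and without preys at the bait too they gave 1.21, no longer called. Counting each position once gave 0.879 for Sμ and 1.45 for microhomology outside IgH, no longer called, and turned the deletional shares to 1.16 in Sγ1, 1.05 in Sε and 1.22 over the 3 regions. It also turned the downstream tails to 0.790 in Sμ, 0.855 in Sγ1 and 0.877 in Sε, and the shift of the Sμ median to -43 bases, and a core of the central 90% turned them to 0.985 in Sγ1 and 0.975 in Sε. A long overlap of 10 to 15 bases gave 1.84 over all regions and 3.49 in Sγ1, both now called. This limit turned Sμ to 2.22 and Sε to 0.739, and a limit of 6 to 15 bases turned Sμ to 1.17 and Sε to 0.736. Overlaps over 15 bases were left out of both. Outside IgH, without the end of chromosome 12 around IgH microhomology gave 1.53 and the chromosome 12 share 0.584, neither called. On other chromosomes alone microhomology gave 1.27 and insertion 0.484, neither called. With none of the 4 frequent read starts, microhomology gave 1.71 and the chromosome 12 share 0.569, neither called, the call on AGCT at the bait stayed (0.587), and its motifs taken singly were now called (0.646 and 0.522). Leaving CCGTTA reads out of CtIP_KO alone changed no call on place or structure over all junctions. These were 2.35% of its listed junctions, and the Wildtype counts were kept whole. This alternative therefore cannot show how far the Wildtype reads that open with CCGTTA enter those calls. The cause of these changes was not tested. With 50 inversional Sε joins and 158 junctions outside IgH in CtIP_KO, intervals there are wide.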
